A study of Mus musculus with 4 samples.

Results

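The Toll-like receptors (TLRs) are the membrane sensors by which macrophages and microglia detect microbial molecules. This account covers the transcripts of 8 of them, Tlr1, Tlr2, Tlr3, Tlr4, Tlr6, Tlr7, Tlr9 and Tlr13, and of the LPS-binding partners of TLR4, namely Cd14 (which encodes CD14) and Ly96 (which encodes MD-2). The 10 genes were taken by symbol from the 24411 gene symbols of the deposited count files. All 10 had reads and passed the filter on low counts.

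Reads came from directional sequencing of rRNA-depleted total RNA of BV2, an immortalised mouse microglial cell line. In every library the labelled genotype is Pu.1 KO, made with CRISPR-Cas9 (PU.1 is encoded by Spi1), so both groups share that genotype and no effect of the knockout was measured. The groups are 2 untreated libraries and 2 libraries treated with lipopolysaccharide (LPS, the cell wall lipid of Gram-negative bacteria) at 10 ng/ml. The exposure time is not settled, since 1 label field says 2 h (source name) and another 4 h (title). The labels do not say whether the knockout line is 1 clone or whether libraries came from separate cultures, so p-values measure only the spread between these libraries, which may be technical. The comparison asked how the cells respond to LPS.

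CD14 is a surface protein that extracts LPS and hands it to MD-2, which sits on the ectodomain of TLR4 and holds the lipid. TLR2 recognises bacterial lipopeptides as a pair with TLR1 or with TLR6. TLR3, TLR7, TLR9 and TLR13 act in endosomes, where they read double-stranded RNA, single-stranded RNA, DNA with unmethylated CpG and bacterial ribosomal RNA, respectively. Microglia are the main TLR-bearing cells of the brain, and LPS acting on TLR4 is the usual laboratory stimulus for them.

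Gene counts were 4502105 and 4115011 in the untreated libraries and 3256197 and 3749159 in the LPS libraries. Spi1 reads numbered 844 and 743 without LPS and 745 and 958 with it, which shows transcript of the targeted gene and not the edit. Levels are given as CPM (counts scaled by library size and TMM factors). On that scale Spi1 was at 161 and 164 CPM untreated and at 258 and 291 CPM after LPS. It was 1.69-fold higher (edgeR adjusted p = 8.8e-10). Markers of microglia and macrophages had reads and went both ways. Itgam, Adgre1, Ptprc, Fcgr1, Cx3cr1 and Aif1 were higher, Tmem119 fell from 19.1 to 5.46 CPM, Csf1r was called lower by a small margin (adjusted p = 0.0432 with edgeR, 0.153 with DESeq2), and P2ry12 was near 0 with means of 1.92 and 0.173 CPM. None of 5 neuron or 4 epithelial markers had a read, Mbp, Cd3e and Col1a1 were at 0, and the summed fibroblast, astrocyte, oligodendrocyte and lymphocyte markers reached at most 1.39 CPM in a library. The 6 endothelial markers summed to 22.8 to 23.2 CPM untreated and 34.0 to 49.9 CPM after LPS, with Pecam1, Tek and Cldn5 at 0, and the part of such transcripts in the results below was not tested. In a bulk culture, more cells that express a gene and more RNA per cell cannot be told apart.

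The 4 stretches below show the 250 bases upstream of the RefSeq start of Tlr2 and Tlr3, the risers by the largest folds among the receptors with an entry, of Tlr13, a moderate riser, and of Tlr9, whose estimate was negative. They are given 5′ to 3′ on the gene's strand from build GRCm38.p6, at chr3:83841609-83841858 on the minus strand (Tlr2), chr8:45410381-45410630 on the minus strand (Tlr3), chrX:106143025-106143274 on the plus strand (Tlr13) and chr9:106222348-106222597 on the plus strand (Tlr9). Capitals mark matches on either strand to the PU box GAGGAA, a core bound by PU.1, to the core AANNGAAA of interferon regulatory factors (IRF), and to the NF-kB consensus.
Tlr2: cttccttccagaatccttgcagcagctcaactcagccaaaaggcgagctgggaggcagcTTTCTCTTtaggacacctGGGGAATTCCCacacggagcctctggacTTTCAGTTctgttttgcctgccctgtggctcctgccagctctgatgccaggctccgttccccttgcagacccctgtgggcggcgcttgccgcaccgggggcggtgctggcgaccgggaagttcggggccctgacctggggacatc
Tlr3: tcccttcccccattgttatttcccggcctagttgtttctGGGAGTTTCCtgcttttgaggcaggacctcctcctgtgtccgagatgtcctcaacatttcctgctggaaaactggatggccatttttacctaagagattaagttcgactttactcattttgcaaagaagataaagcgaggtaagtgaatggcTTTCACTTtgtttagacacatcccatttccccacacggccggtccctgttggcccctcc
Tlr13: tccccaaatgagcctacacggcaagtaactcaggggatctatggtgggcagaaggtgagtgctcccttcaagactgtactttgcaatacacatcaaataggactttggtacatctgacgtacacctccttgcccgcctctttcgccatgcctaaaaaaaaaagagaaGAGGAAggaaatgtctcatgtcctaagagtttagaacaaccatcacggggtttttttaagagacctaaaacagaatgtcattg
Tlr9: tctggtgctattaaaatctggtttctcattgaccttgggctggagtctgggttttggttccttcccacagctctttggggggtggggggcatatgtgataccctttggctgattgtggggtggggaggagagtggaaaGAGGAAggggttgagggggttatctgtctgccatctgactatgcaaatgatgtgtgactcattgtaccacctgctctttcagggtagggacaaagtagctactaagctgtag

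The table of RefSeq promoters used here matched 6 of the 10 genes, with 8 windows in all because Tlr1 and Tlr6 have 2 starts each in it. The NF-kB consensus occurred upstream of Tlr2, where 3 matches overlap between 173 and 172 bases before the start, and upstream of Tlr3 at 211 bases, that is in 2 of 8 windows against 3.90% of 32851 RefSeq windows of the same length. The IRF core occurred in 4 of 8 windows (Tlr1, Tlr2, Tlr3 and Tlr6) against 21.3% of all. In Tlr3 it stands 59 bases before the start, and in Tlr6 3 of its 4 matches overlap, from 116 to 104 bases. The PU box occurred in 3 of 8 windows (Tlr1, Tlr9 and Tlr13) against 23.3% of all. No window held both a PU box and an IRF core, and no match of 1 motif overlapped a match of another. These are letter matches in short windows and say nothing of binding.

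LPS raised 7 of the 10 genes, against 26.6% of the 9992 genes tested, and 51.9% of genes changed in either direction (edgeR quasi-likelihood test, Benjamini-Hochberg adjusted p below 0.05 over all genes). The background of genes lower after LPS was 25.3%, and no member was called lower by that test. Of the 7, 6 were at least 2-fold higher, against 9.47% of all genes. Tlr1 and Tlr13 were under 2-fold, that is under 1 log2 unit, in some other settings. Their log2 fold changes were 0.76 and 0.90 with library size as the only scaling. With offsets corrected for GC content they were 0.85 and 0.94. At an unadjusted p below 0.05 there were 8 members, the eighth being Tlr4, against 5666 of the 9992 genes tested. The median log2 fold change of all tested genes was 0.00063.

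**Figure D1:**
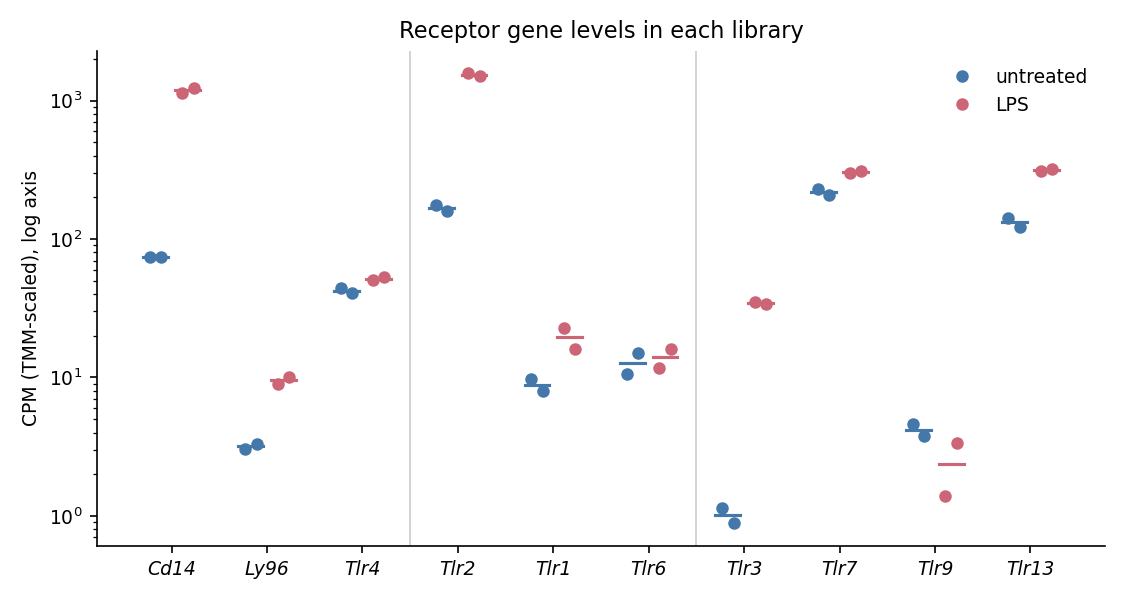
Level of each receptor gene in each library, in TMM-scaled CPM on a log axis. Points are single libraries (2 untreated in blue, 2 LPS in red) and short lines are group means, and vertical lines part the LPS receptor complex, the TLR2 group and the endosomal receptors. Cd14 lies at 74.2 and 74.8 CPM untreated and at 1146 and 1236 CPM after LPS, while the points of Tlr6 overlap between the groups.

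The LPS receptor complex responded in its binding partners, and the call for the receptor chain itself was not reached. Cd14 was at 74.2 and 74.8 CPM in the untreated libraries and at 1146 and 1236 CPM in the LPS libraries. The libraries of each group lay close together and the groups were far apart. In log2 terms the change was 4.00 (SE 0.095, 95% interval of the fold 14.0 to 18.3, adjusted p = 2.6e-36 with edgeR), larger than that of 98.6% of tested genes.

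Ly96, the lowest of this complex in reads, had 16 and 15 reads untreated and 26 and 33 after LPS. On the CPM scale these are 3.06 and 3.32 against 9.01 and 10.0, and the groups did not overlap. MD-2 transcript thus rose 2.98-fold (1.89 to 4.70), or 1.58 in log2 terms (SE 0.33, adjusted p = 6.3e-05 with edgeR). The interval is wide because the gene had at most 33 reads in a library.

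Tlr4 was at 44.2 and 40.5 CPM untreated and at 50.6 and 53.1 CPM after LPS. Both LPS libraries lay above both untreated ones, an order that 37.5% of tested genes showed. Its fold was 1.22 (1.02 to 1.47), with a log2 fold change of 0.29 (SE 0.13, edgeR unadjusted p = 0.0287, adjusted p = 0.0545), which missed the threshold. The estimate turned to -0.07 with library size as the only scaling and to -0.13 with offsets corrected for GC content, and neither passed. A rise above 1.47-fold lies outside the interval of the TMM-scaled fit.

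Ratios of 2 genes counted in the same library do not depend on a scaling factor that all genes of the library share. They can depend on GC content, which was 52.5% for Cd14 and 39.4% for Tlr4, and were not corrected for it. There were 1.68 and 1.85 Cd14 reads per Tlr4 read in the untreated libraries and 22.7 and 23.3 after LPS, a rise of 3.70 log2 units. Per kilobase of transcript (GENCODE vM21, longest transcript of the symbol), Cd14 stood at 4.38 ± 0.294 times Tlr4 untreated and 57.0 ± 1.07 times Tlr4 after LPS (SD, n = 2). With the mean length over a gene's transcripts the multiples were 2.49 and 32.4, and Cd14 was above Tlr4 without LPS by each length tried.

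For MD-2 the ratio to the receptor was higher after LPS, and the order of the 2 levels depended on the length. Per kilobase of longest transcript, Ly96 was at 0.424 and 0.502 of the Tlr4 level in the untreated libraries and at 1.09 and 1.15 after LPS. With coding length the LPS values were 0.929 and 0.984, and with mean transcript length 0.549 and 0.581, so Ly96 passed Tlr4 only with the longest transcript. The rise in the ratio itself, 2.43-fold, does not depend on the length.

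**Figure D2:**
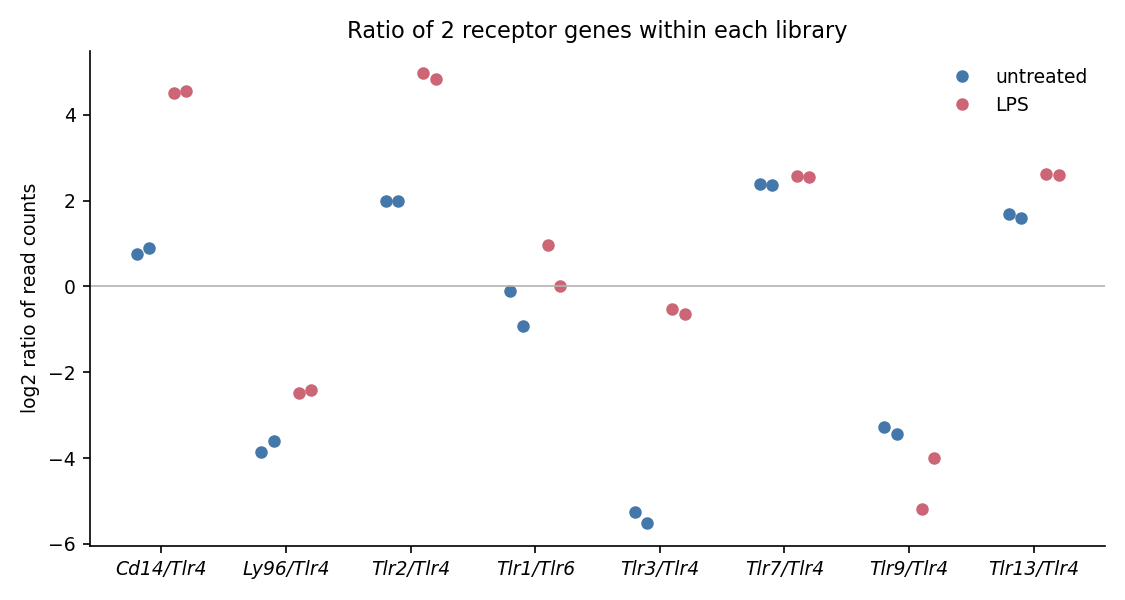
Log2 ratio of the read counts of 2 receptor genes within each library (points, untreated in blue, LPS in red). Relative to Tlr4, the Cd14, Tlr2 and Tlr3 ratios move by 3.70, 2.91 and 4.81 log2 units, Tlr7 moves by 0.19, and only Tlr9 falls.

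The TLR2 group moved unevenly. Tlr2, which encodes the chain shared by both lipopeptide receptors, was at 176 and 159 CPM untreated and at 1580 and 1510 CPM after LPS. Its groups were well separated. The fold was 9.21 (8.14 to 10.4), or 3.20 in log2 terms (SE 0.089, adjusted p = 2.2e-33 with edgeR).

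Tlr1, the partner for triacylated lipopeptides, had 51 and 36 reads untreated and 66 and 53 after LPS. In CPM that is 9.75 and 7.96 against 22.9 and 16.1, so the LPS libraries were higher but differed from each other. Its fold was 2.16 (1.57 to 2.97, log2 fold change 1.11, SE 0.23, edgeR adjusted p = 5.6e-05).

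Tlr6, the partner for diacylated lipopeptides, was at 10.5 and 15.0 CPM untreated and at 11.8 and 16.1 CPM after LPS. It was the 1 member whose groups overlapped. Its estimate of 0.15 in log2 terms (SE 0.23, adjusted p = 0.607 with edgeR) did not pass, and its 95% interval of -0.32 to 0.62 reaches from a fold of 0.804 to a fold of 1.53.

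Tlr1 and Tlr6 are neighbouring paralogues. Of the 101-base stretches of their longest transcripts, 256 occur in both, 8.75% of those of Tlr1 and 7.16% of those of Tlr6, and reads from these stretches have no unique place. Neither Tlr2, Tlr4, Tlr7, Tlr9, Tlr13, Cd14 nor Ly96 shared such a stretch with another gene, and Tlr3 shared 17 with Gm45542, a gene annotated on the other strand. The levels of Tlr1 and Tlr6 are therefore somewhat uncertain, and the uncertainty is common to both groups. There were 0.927 and 0.529 Tlr1 reads per Tlr6 read untreated and 1.94 and 1.00 after LPS, so the higher untreated ratio was close to the lower LPS one. Per kilobase, Tlr2 stood at 8.72 ± 1.20 times the sum of Tlr1 and Tlr6 untreated and at 50.2 ± 2.13 times that sum after LPS (SD, n = 2), or 5.35 and 31.8 times with mean transcript length.

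Among the endosomal receptors, the RNA sensors rose by very different amounts. Tlr3, the sensor of double-stranded RNA, had only 6 and 4 reads without LPS against 102 and 112 with it. These are 1.15 and 0.885 CPM against 35.3 and 34.0 CPM, the widest separation of the 10 genes. The fold was 32.8 (21.7 to 49.7), or 5.04 in log2 terms (SE 0.30, adjusted p = 5.5e-20 with edgeR), which exceeded that of 99.0% of tested genes. The lower end rests on 10 untreated reads in all.

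Tlr13, which senses a sequence of bacterial ribosomal RNA and has no human counterpart, was at 141 and 123 CPM untreated and at 311 and 321 CPM after LPS. Both LPS libraries were far above both untreated ones. It rose 2.39-fold (2.10 to 2.72, log2 fold change 1.26, SE 0.092, edgeR adjusted p = 1.6e-16).

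Tlr7, the sensor of single-stranded RNA, was at 230 and 207 CPM untreated and at 300.1 and 311 CPM after LPS. The groups did not overlap, and the shift was small beside that of Tlr13. In log2 terms the change was 0.48 (SE 0.088, 95% interval of the fold 1.24 to 1.58, edgeR adjusted p = 8.4e-06). This call depends on the scaling: with library size only the log2 fold change was 0.12 (adjusted p = 0.296), and with GC-corrected offsets 0.09 (adjusted p = 0.385). Relative to Tlr4 in the same library it changed from 5.22 and 5.11 reads to 5.93 and 5.86 reads.

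Tlr9, the DNA sensor, was the 1 member with a negative estimate. It had 24 and 17 reads untreated and 4 and 11 after LPS, or 4.59 and 3.76 CPM against 1.39 and 3.34 CPM. Both LPS libraries were below both untreated ones, an order that 37.6% of tested genes showed, but LPS replicate 2 was close to them. The log2 fold change of -0.79 (SE 0.44, interval -1.67 to 0.10, edgeR adjusted p = 0.134) did not pass. It was -0.33 without LPS replicate 1 (adjusted p = 0.634) and -1.58 without LPS replicate 2 (adjusted p = 0.0512), so LPS replicate 1 sets most of the size. With library size only it was -1.14 and passed (adjusted p = 0.0169).

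**Figure D3:**
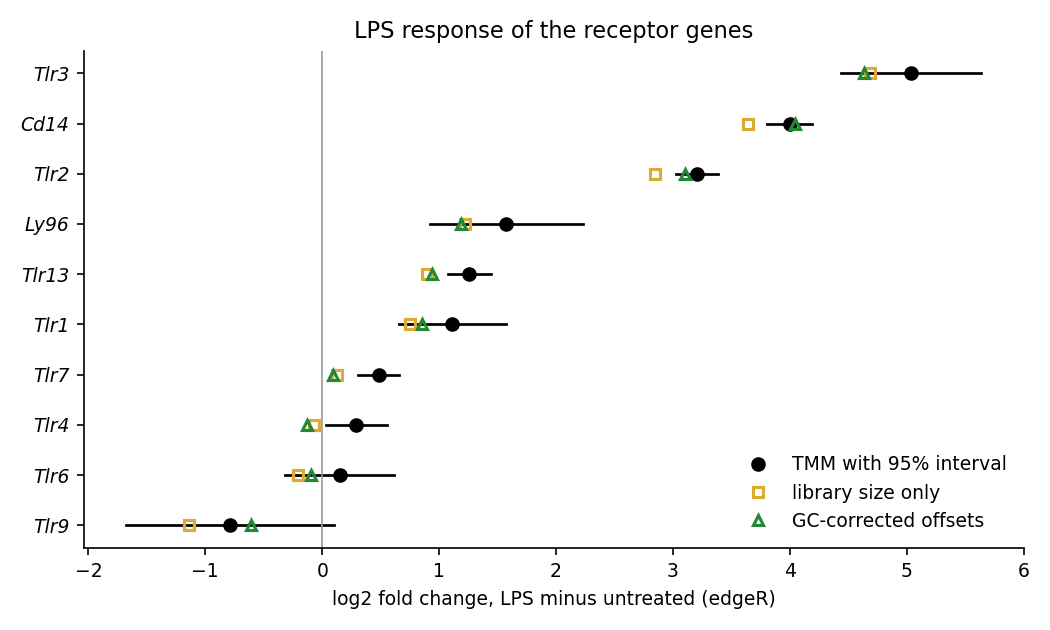
Log2 fold change, LPS minus untreated, of each receptor gene (edgeR). Black points with lines are the TMM-scaled fit with its 95% interval, open squares the fit scaled by library size only, and open triangles the fit with GC-corrected offsets. Tlr3, Cd14, Tlr2, Ly96, Tlr13 and Tlr1 stay above 0 in all 3, Tlr7 lies near 0.1 in the last 2, and Tlr4 and Tlr6 fall on both sides of 0.

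Fold changes varied with base composition over all genes, and the part of this in the members' values was not tested. The median log2 fold change was 0.28 in the fifth of tested genes with the lowest GC content (29.6% to 43.6%), which holds Tlr3, Tlr4, Tlr7, Tlr13 and Ly96. It was -0.32 in the fifth with the highest GC content (55.2% to 72.5%), which holds Tlr9. With offsets corrected for GC content, 6 of the 10 genes were higher, against 20.8% of all genes, and 0 lower, against 30.5%. The folds least touched were those of Cd14 (log2 fold change 4.04) and Tlr2 (3.10). With library size as the only scaling, which moved the median of all genes to -0.36, again 6 were higher, against 13.8% of all genes, and Tlr9 was lower, against 47.8%. With DESeq2 7 were higher, against 18.4% of all genes. In each of the 14 alternatives that were run, Tlr1, Tlr2, Tlr3, Tlr13, Cd14 and Ly96 passed as higher.

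Levels of different genes were compared per kilobase of longest transcript. The order depends in part on that length. Without LPS it was led by Tlr7 at 56.1 ± 4.29 and Tlr2 at 55.6 ± 3.78 CPM per kb (SD, n = 2), which did not differ beyond their spread. Cd14 at 45.4 ± 0.237 and Tlr13 at 32.5 ± 3.20 CPM per kb came next. These 4 lay above 82.5% to 90.3% of tested genes. With mean transcript length Tlr7 led alone at 107.9 CPM per kb, ahead of Tlr13 (60.0), Cd14 (59.4) and Tlr2 (55.6), while coding length put Tlr2 first at 71.2, with Tlr7 at 69.4 CPM per kb.

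Tlr4 was in the middle of the range at 10.4 ± 0.643 CPM per kb, above 54.7% of tested genes. The lower members were Ly96 (4.79 ± 0.273), Tlr6 (3.48 ± 0.869), Tlr1 (2.93 ± 0.419), Tlr9 (1.20 ± 0.169) and Tlr3 (0.231 ± 0.0422 CPM per kb). Tlr6 and Tlr1 did not differ beyond their spread.

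After LPS Cd14 (726 ± 38.6) and Tlr2 (513 ± 16.2 CPM per kb) led, both above 99.1% or more of tested genes. Tlr7 (78.4 ± 2.01) and Tlr13 (77.8 ± 1.91 CPM per kb) were then level within their spread, and Tlr13 was ahead with coding length (106 against 97.0 CPM per kb). Ly96 (14.3 ± 1.07) and Tlr4 (12.7 ± 0.439) followed. Tlr3 at 7.87 ± 0.216 CPM per kb had moved from the last place to the seventh, near Tlr1 (6.44 ± 1.59) and above Tlr6 (3.79 ± 0.828) and Tlr9 (0.679 ± 0.397 CPM per kb). It stood further above Tlr1 with coding length (12.8 against 8.17) and with mean transcript length (17.8 against 9.39 CPM per kb).

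**Figure D4:**
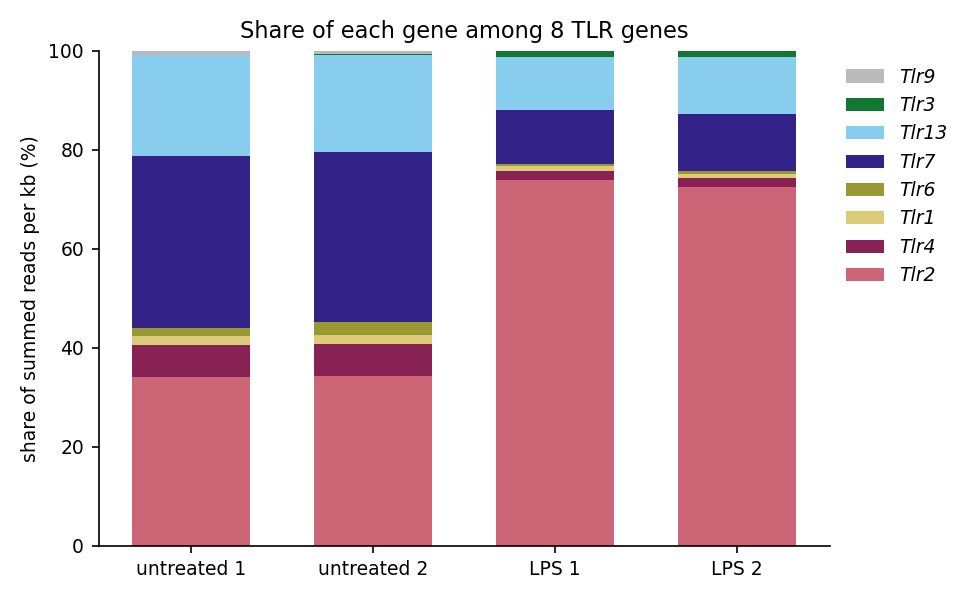
Share of each of the 8 TLR genes in their summed reads per kilobase, for each library (stacked bars, in percent). Tlr2 takes 34.1% and 34.3% without LPS against 73.9% and 72.5% with it, and the shares of Tlr7 and Tlr13 shrink although their levels did not.

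The make-up of the TLR transcript pool differed between the groups. Summed over the 8 TLR genes, the level was 162 ± 11.7 CPM per kb untreated and 700.4 ± 12.5 CPM per kb after LPS (SD, n = 2). Shares within a library need no scaling between libraries, but they were not corrected for GC content. The share of Tlr2 was 34.2% ± 0.135 untreated and 73.2% ± 1.02 after LPS. The 4 surface receptors together made up 44.6% ± 0.762 untreated and 76.5% ± 1.00 after LPS, and the endosomal ones the rest. Tlr7 had 34.5% ± 0.160 and then 11.2% ± 0.486, Tlr13 20.4% and 19.6% without LPS against 10.8% and 11.5% with it, and Tlr4 6.40% ± 0.0642 and then 1.82% ± 0.0950. With mean transcript length Tlr2 had 21.4% and then 58.8%, and the surface receptors 34.7% and then 64.0%. Tlr3 had 0.141% ± 0.0158 untreated and 1.12% ± 0.0109 after LPS. In each of these shares and in the 8 ratios plotted, the libraries of the 2 groups did not overlap. An exact two-sided permutation test gave p = 0.333 for each (0.333 adjusted over the 8 ratios), the smallest value that 2 libraries against 2 allow.

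For Cd14, Tlr2 and Tlr4 the genes with the most similar profile were sought, as the smallest Euclidean distance of log2 CPM centred on the gene's mean, over the 4 libraries. Cd14 was nearest to Igsf6 (distance 0.093), Ccl3 (0.118) and Ptgs2 (0.133), which were 15.3-fold, 17.2-fold and 15.3-fold higher after LPS. Tlr2 was nearest to Trim14 (0.135), Socs3 (0.158) and Fcgr4 (0.168). Tlr4 was nearest to Hmgn2 (0.015), Galnt1 (0.016) and Adssl1 (0.023), whose folds were 1.22, 1.23 and 1.24. With 4 libraries in 2 groups this measure mostly ranks genes by fold.

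The rest of the family was close to silent. Tlr5 and Tlr11 had 0 reads in each library, which allows up to 3 reads per library by counting error alone. Tlr12 had 1 read in each LPS library. Tlr8, which like TLR7 belongs to the endosomal RNA sensors, had 5 and 6 reads untreated and 6 and 3 after LPS, below the filter.

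Genes whose products act with the receptors were taken as lists. Of 6 surface partners and TLR-like receptors 5 could be tested, and 4 were higher and 0 lower (26.6% and 25.3% of all genes), with a median log2 fold change of 1.01. Cd180, an LPS-regulating relative of TLR4, was at 183 and 173 CPM untreated and 309 and 301 CPM after LPS (1.71-fold, edgeR adjusted p = 2.0e-10). Its partner Ly86, which encodes MD-1 and is the counterpart of Ly96, did not pass (log2 fold change -0.18, adjusted p = 0.162). The integrin chain genes Itgam and Itgb2, which together encode complement receptor CR3, rose 4.60-fold and 2.01-fold. The scavenger receptor gene Cd36 had 6 and 0 reads untreated and 17 and 30 after LPS. Its rise of 3.56 in log2 terms (SE 0.55, adjusted p = 1.5e-06 with edgeR) did not pass with DESeq2 (adjusted p = 0.0652). Without untreated replicate 2, the library with 0 reads, it was 2.68, and without untreated replicate 1 the fit gave 7.76 against a lone library at 0, a value set by the prior count. Lbp, the serum carrier of LPS, had 0 reads.

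All 12 chaperone and trafficking genes were tested, of which 4 were higher and 3 lower (median log2 fold change 0.09), shares near those of all genes. Hsp90b1, which encodes the chaperone gp96 needed to fold most TLRs, rose from 169 ± 0.0268 to 283 ± 34.5 CPM (SD, n = 2), 1.68-fold. Its co-chaperone gene Cnpy3 fell (log2 fold change -0.42, edgeR adjusted p = 0.0018), a call lost with GC-corrected offsets (adjusted p = 0.202) and without untreated replicate 2 (0.0723). Rab7b, a GTPase that sends TLR4 to lysosomes, was at 40.7 and 42.0 CPM untreated and 94.3 and 99.6 CPM after LPS, 2.34-fold higher. Rab11a rose 1.54-fold but did not pass with GC-corrected offsets (adjusted p = 0.127) or library size only (0.063). The endosomal sorting gene Hgs fell from 46.4 ± 0.604 to 23.9 ± 1.54 CPM (log2 fold change -0.96). Unc93b1, the escort of the endosomal TLRs, did not pass (log2 fold change 0.20, edgeR adjusted p = 0.0968).

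A list of 7 genes, called uptake genes below, covers the uptake of TLR4 that depends on CD14 and, with Rab10, its return to the surface. Of the 7, 4 were higher, against 26.6% of all genes, and 2 lower, a share near the 25.3% of all genes. Their median log2 fold change was 0.34. The kinase gene Syk was at 43.0 and 48.7 CPM untreated and 274 and 262 CPM after LPS, 5.85-fold higher. Plcg2, the phospholipase gene that acts after Syk, went the other way, from 41.9 and 43.3 CPM to 22.5 and 16.4 CPM, a log2 change of -1.14 (SE 0.16, adjusted p = 6.6e-08 with edgeR). Rab10, which returns TLR4 to the surface, rose 1.51-fold, and the adaptor gene Tyrobp 1.44-fold, a call lost with library size only (adjusted p = 0.123).

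Endosomal proteases and nucleases prepare receptors and ligands for TLR7, TLR9 and their kin. Of 10, 8 could be tested, with 5 higher and 3 lower (median log2 fold change 0.33), where 51.9% of all genes changed. With DESeq2 4 were higher, against 18.4% of all genes, and 2 lower, against 14.9%. Ctsk, a cathepsin gene, rose from 865 ± 30.4 to 4695 ± 271 CPM (SD, n = 2), 5.43-fold. Ctsb and Ctsl rose 1.69-fold and 1.71-fold. Pld4, an exonuclease gene that limits TLR9 ligands, fell from 188 ± 4.64 to 122 ± 4.85 CPM (log2 fold change -0.62, edgeR adjusted p = 2.5e-07), and Lgmn, the gene of a protease that trims TLR9, fell by 0.24 on the log2 scale (adjusted p = 0.0116), a call lost without untreated replicate 1 (adjusted p = 0.0723) or untreated replicate 2 (0.163).

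Of 6 inhibitors acting at the receptors, 4 could be tested (median log2 fold change -0.21). With edgeR 0 passed in either direction, against 51.9% of all genes. With DESeq2 0 passed, against 18.4% of all genes higher and 14.9% lower. An unadjusted p below 0.05 with edgeR was reached by 1 of them and by 5666 of all 9992 genes tested. Tollip was at 88.6 ± 2.95 and 93.8 ± 8.99 CPM and Rnf41 at 56.0 ± 2.41 and 56.1 ± 1.40 CPM (SD, n = 2). Sigirr had 0 reads. Of 10 adaptors and first kinases 9 could be tested, 5 higher, against 26.6% of all genes, and 1 lower, against 25.3% (median log2 fold change 0.47). Myd88, the adaptor used by most TLRs, rose 2.08-fold from 81.0 ± 7.73 CPM. The IRAK family genes Irak2 and Irak3 rose 6.99-fold and 7.29-fold. IRAK-M, the product of Irak3, is a brake on TLR signalling, but Irak3 was counted here and not among the 6 inhibitors. Tirap rose 1.51-fold, a call lost with DESeq2 (adjusted p = 0.204), GC-corrected offsets (0.116), library size only (0.364), upper-quartile scaling (0.0511), and without untreated replicate 1 (0.0831), untreated replicate 2 (0.0698) or LPS replicate 2 (0.351).

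**Figure D5:**
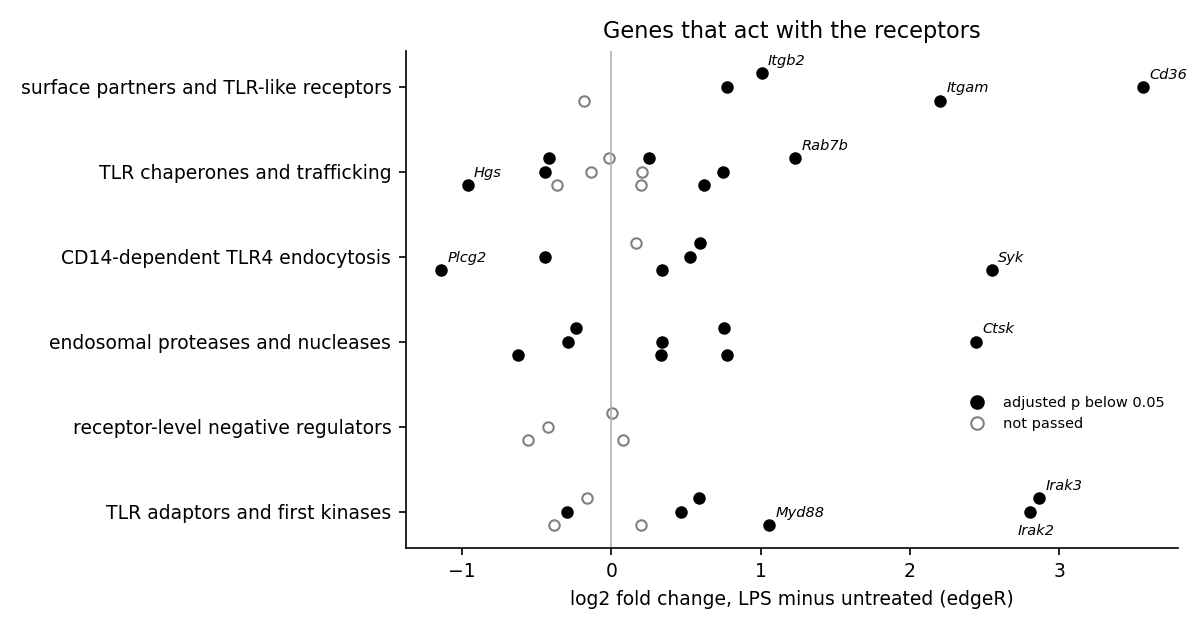
Log2 fold change, LPS minus untreated (edgeR), of the tested genes of 6 lists, 1 point per gene with a small vertical offset for legibility. Filled points passed at adjusted p below 0.05, open ones did not, and genes beyond about 1 log2 unit are named. Cd36, Irak3, Irak2, Syk, Ctsk and Itgam lie to the right, Plcg2 and Hgs to the left, and no gene of the inhibitor list passed.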

How the data were processed

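The authors deposited raw counts of reads per gene for 2 untreated and 2 LPS libraries, in the layout of STAR's gene counts (4 summary lines, 24411 symbols, 3 count columns by strand). The authors used CASAVA 1.8.2, Trimmomatic 0.33, STAR 2.5.1 and DESeq2 per the submitters' processing notes, which name build hg19 although symbols are mouse. The sources used here do not name the annotation. Reverse-strand counts were taken, since their gene total was 78.7 to 95.3 times the forward one. Counts in this layout hold unique reads only. Summary lines were left out. Of uniquely placed reads, 53.0% and 51.8% lay in no feature in the untreated libraries, against 59.1% and 57.4% after LPS. Unmapped reads were 19.0% and 20.7% untreated against 23.0% and 24.2% after LPS. TMM factors were 1.16 and 1.10 untreated against 0.888 and 0.880 after LPS. These measures thus differed between the groups, and their part in the results was not tested.

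Counts were filtered with edgeR's expression filter (9992 of 12982 genes with a read were kept), scaled with TMM and tested with edgeR 4.0.16 (robust quasi-likelihood, two-sided, treatment only) in R 4.3.3. SE is the log2 fold change over the square root of F, an approximation that also gives the 95% intervals. On simulated data of 9881 genes, 82 of 92 changes of 1 log2 unit and 107 of 107 of 2 log2 units were called. Of 9682 unchanged genes, 6 were called. Few genes changed in that simulation, against 51.9% in these data, and it held no trend with GC content. Its rates therefore cannot be carried over to these data. The pair of libraries differed by more than sampling noise in each group (chi-square per degree of freedom 1.52 and 2.44). Lengths, GC content and shared stretches come from GENCODE vM21 by symbol (99.7% of tested genes had a GC value), promoters from RefSeq GRCm38.p6. Profile likeness used log2 CPM with a prior count of 0.25.

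The genes named are the 10 members, Spi1, for each list at most 4 genes that passed, taken by p (or the 2 most abundant where none changed) and the 3 nearest profiles of 3 members. Ly86, Lbp, Cnpy3, Unc93b1, Lgmn, Sigirr, Tlr5 and Tlr11 were added after their values were seen. A marker of the microglia list is not reported here. Members, lists, motifs and tests were chosen with earlier results of these data known. Alternatives tried were edgeR with RLE, upper-quartile or no scaling factors, DESeq2 1.42.0, 2 other filters, unstranded counts, a replicate block, leaving out 5 abundant entries (Rn45s, Lars2, Mir6236, Rmrp, Rpph1), GC-corrected offsets, other transcript lengths and leaving out each library.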

Additional observations from a re-analysis of the deposited data

Results flagged for a closer look

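Reads on the strand opposite to a gene, which the comparisons do not use, were looked at for the 10 genes. Tlr2 had 14 such reads in the LPS libraries (2 and 12) and 4 in the untreated ones, and Cd14 had 6 (2 and 4) against 4. Relative to the forward-strand total of a library, both LPS libraries lay above both untreated ones, LPS replicate 1 only narrowly (2 reads against 3 in the deeper untreated replicate 1, for either gene). As a share of the gene's own stranded reads they were 0.147% after LPS and 0.243% untreated for Tlr2. Tlr7 had more such reads, 18 after LPS (2 and 16) and 7 untreated (3 and 4), a share of 0.943% against 0.326%, but its groups overlapped relative to the forward-strand total.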

How the results depend on the processing

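Of the 10 genes, 7 were higher in the main setting and in 12 of the 14 alternatives, and 6 with library size only and with GC-corrected offsets. With library size only 1 was lower. The estimate of Tlr4 turned to -0.067 with library size only and -0.13 with GC-corrected offsets. That of Tlr6 turned to -0.21 and -0.094 under the same settings, to -0.10 without untreated replicate 1 and to -0.10 without LPS replicate 2, and was 0.41 without untreated replicate 2. The cause of these changes was not tested. Over all genes, 1379 were higher and 4778 lower with library size only, and 1486 were lower with DESeq2. Leaving out each library in turn gave 2114 to 2547 higher and 1949 to 2370 lower genes, 7 higher and 0 lower members, and a log2 fold change of -1.58 to -0.33 for Tlr9.

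The deviations of same-numbered libraries had a correlation of -0.039 across 9992 genes. With 2 libraries per group this cannot show whether libraries with the same number were paired. With the replicate block 2658 genes were higher and 2513 lower, with 7 members higher. In the lists, library size only gave 1 lower surface partner, 2 higher and 6 lower trafficking genes, 2 higher uptake genes and 3 higher endosomal genes. It also gave 3 lower inhibitors, and 3 higher and 3 lower adaptors and kinases. Of all genes, 13.8% were higher and 47.8% lower in that setting. Upper-quartile scaling gave 1 lower surface partner, 1 lower inhibitor and 3 higher adaptors and kinases. Over all genes it gave 2222 higher and 3056 lower. DESeq2 gave 3 higher and 0 lower adaptors and kinases, against 18.4% and 14.9% of all genes. GC-corrected offsets gave 1 lower surface partner, 1 lower uptake gene and 2 lower adaptors and kinases, against 30.5% of all genes lower. Without 1 library at a time, lower counts ranged from 0 to 1 for surface partners, 1 to 3 for trafficking genes, 1 to 2 for uptake genes, 1 to 3 for endosomal genes, 0 to 1 for inhibitors and 0 to 1 for adaptors and kinases, whose higher count ranged from 3 to 4. Levels per kilobase moved with coding or mean transcript length, by more than the spread between libraries in 34 of 40 cases, and the order of the members changed with it. Depth limits Tlr3, Tlr9 and Ly96 most, which had 10, 41 and 31 untreated reads.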
